A study of Mus musculus with 14 samples.

Results

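The genes described here are 42 components of Wnt signalling, out of 29713 genes with a value in every library. They were chosen by name from a list of ligands, receptors, inhibitors, nuclear factors and targets, with earlier results of these data known. All 42 were found by matching the Ensembl identifiers of the files to gene symbols. They were followed through 14 RNA-seq libraries from mouse neural stem cells (NSC) of OG2 origin, a line that carries a Pou5f1 reporter in every group, controls included. Of these, 12 libraries at passage 8 crossed 4 stages with 3 treatments. The stages were undifferentiated cells and cells differentiating for 2, 4 or 8 days, and the treatments were naloxone (a blocker of opioid receptors), DAMGO (a synthetic peptide that activates the mu opioid receptor) and the control called NC. A further pair of undifferentiated NSC libraries, at passage 13 and passage 8, carried no named treatment and served as references. No source used here gives the drug doses, the time of drug exposure or the differentiation medium, and no label says whether libraries came from separate animals or cultures.

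Wnt proteins are lipid-modified secreted ligands. In the canonical branch they bind a Frizzled receptor together with Lrp5 or Lrp6, which stops the Axin complex from destroying beta-catenin, and beta-catenin then acts with Tcf/Lef factors on target genes. Several of those targets, such as Axin2, Nkd1, Apcdd1, Notum, Znrf3 and Rnf43, feed back to damp the pathway, while Ror and Ryk receptors serve branches that do not need beta-catenin. In the embryonic and adult brain the pathway is known for roles in stem cell renewal, regional patterning, neurogenesis and the maturation of the oligodendrocyte lineage.

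There was 1 library for every combination of stage and treatment, without replicates. Totals ran from 4143030 to 9070533 estimated counts, so that 3 counts stood for 0.354 to 0.693 CPM (counts scaled to the library total). The error of each test is the spread left among the 12 libraries once stage and treatment effects are added up (edgeR quasi-likelihood test, adjusted p over 13144 genes, threshold 0.05). A stage comparison therefore sets 3 libraries against 3. Levels are given as TPM (transcript abundance per transcript length, on which genes can be compared), and changes are log2 changes of counts with their SE. In the day 2 NC library the log2 levels of all genes differed from the mean of the 2 drug libraries with an SD of 0.559, against 0.269 to 0.416 for every other library of the 12, and its differences from the drug libraries followed GC content. Results that rest on day 2 are therefore also given without libraries of that stage where that changes a call.

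The cultures changed in makeup over the same days. Summed over 8 astrocyte markers, the level was 11300 to 12100 TPM at day 8 and 504 to 518 TPM in the undifferentiated libraries, and 7 of the 8 markers were higher at day 8. The 6 oligodendrocyte precursor markers summed to 2330 to 2490 TPM in undifferentiated libraries, 3640 to 4080 TPM at day 2, 3010 to 3090 TPM at day 4 and 1140 to 1240 TPM at day 8. That sum was mostly Olig1 and Olig2, and of the 6 markers 3 were higher and 3 lower at day 8, with Pdgfra at 71.9 to 81.2 TPM at day 8 and 6.45 to 7.93 TPM in undifferentiated cells. The 8 NSC markers summed to between 7670 and 12800 TPM over the stages while their members differed in direction, 5 higher and 3 lower at day 8. Among them, Nes was at 62.2 to 88.1 TPM at day 8 and 564 to 614 TPM in undifferentiated cells, and Vim was at 6858 to 7370 TPM at day 8 and 3614 to 3724 TPM in undifferentiated cells. The 6 oligodendrocyte markers summed to 80.7 to 83.4 TPM in undifferentiated cells, 499 to 533 TPM at day 2, 398 to 425 TPM at day 4 and 305 to 339 TPM at day 8. That sum was mostly Cnp, at 475 to 518 TPM at day 2 and 234 to 274 TPM at day 8. At day 8 the 4 ependyma markers summed to 146 to 183 TPM and the 6 mesenchyme and pericyte markers to 60.2 to 77.5 TPM, against 4.19 to 6.84 TPM and 0.86 to 7.57 TPM in undifferentiated cells. Foxj1 made up most of the ependyma sum of day 8, at 134 to 172 TPM, with Dnah5 at 0.08 to 0.13 TPM. Pdgfrb and Acta2 made up most of the mesenchyme and pericyte sum of day 8, with Col1a1 at most 1.35 TPM. Over the stages 7 neuron markers summed to 246 to 1090 TPM, mostly Map2 and Tubb3, and at day 8 3 of them were higher and 3 lower. The 5 genes of dividing cells summed to 22.6 to 26.9 TPM at day 8 and 1730 to 1780 TPM in undifferentiated libraries. Microglia markers summed to at most 1.94 TPM with Cx3cr1 at 0, and endothelial markers to at most 7.26 TPM with Cdh5 and Cldn5 at 0. In bulk RNA, fewer cells of a type and less RNA per cell cannot be told apart, and the part of this change in cell makeup in the results on Wnt genes was not tested.

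The list moved in both directions with differentiation, as most genes did. Of the 42 genes, 38 had enough counts to be tested, and 37 of those changed at 1 or more of the 3 stages, beside 92.9% of all genes. At day 2, 19 of 38 rose and 11 fell against undifferentiated cells, where 69.7% of all genes were called (33.7% higher and 35.9% lower). At day 4, 13 rose and 12 fell, with 62.3% of all genes called (31.4% higher and 31% lower), and at day 8, 17 rose and 15 fell, with 80.1% called (41.6% higher and 38.5% lower). The shares of members called were thus close to those of all genes at day 4 and day 8, and the count of rises at day 2 was above the background share. Since the list was chosen with earlier results of these data known, these comparisons with the background are not tests.

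The median change of the members was small: on the log2 scale it was 0.35 at day 2, 0.04 at day 4 and -0.06 at day 8, beside -0.01, -0.01 and 0.05 over all genes. The median size of the change regardless of direction was 1.13, 1.23 and 1.46 for members at day 2, day 4 and day 8, beside 0.69, 0.57 and 0.95 over all genes. Both sets of medians are descriptions with no test, and the members that passed the filter on low counts are not the whole list. The limit on how the list was chosen holds for them too.

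The genes that were higher at all 3 stages were Apcdd1, Ctnnb1, Dkk3, Fzd2, Fzd6, Fzd7, Porcn, Rnf43, Sfrp1, Tcf7l1 and Tcf7l2, which is 11 of 38, where 21.7% of all genes had this pattern. The 8 that were lower at all 3 stages were Axin2, Fzd1, Fzd10, Lgr5, Nkd1, Ror2, Tcf7 and Znrf3, where the share over all genes was 19.2%. A further 6, Fzd5, Fzd9, Wls, Wnt5a, Wnt7a and Wnt7b, were called in opposite directions at different stages, a pattern held by 7.72% of all genes. By mean TPM, 12 of 38 members peaked at day 2, which is 31.6%, while 13.8% of all tested genes did. These shares are descriptions with no test, of a list chosen with earlier results of these data known. Day 8 was the peak of 4 members, Fzd5, Fzd6, Lgr4 and Wnt9a, or 10.5%, beside 23.9% of all genes.

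**Figure D1:**
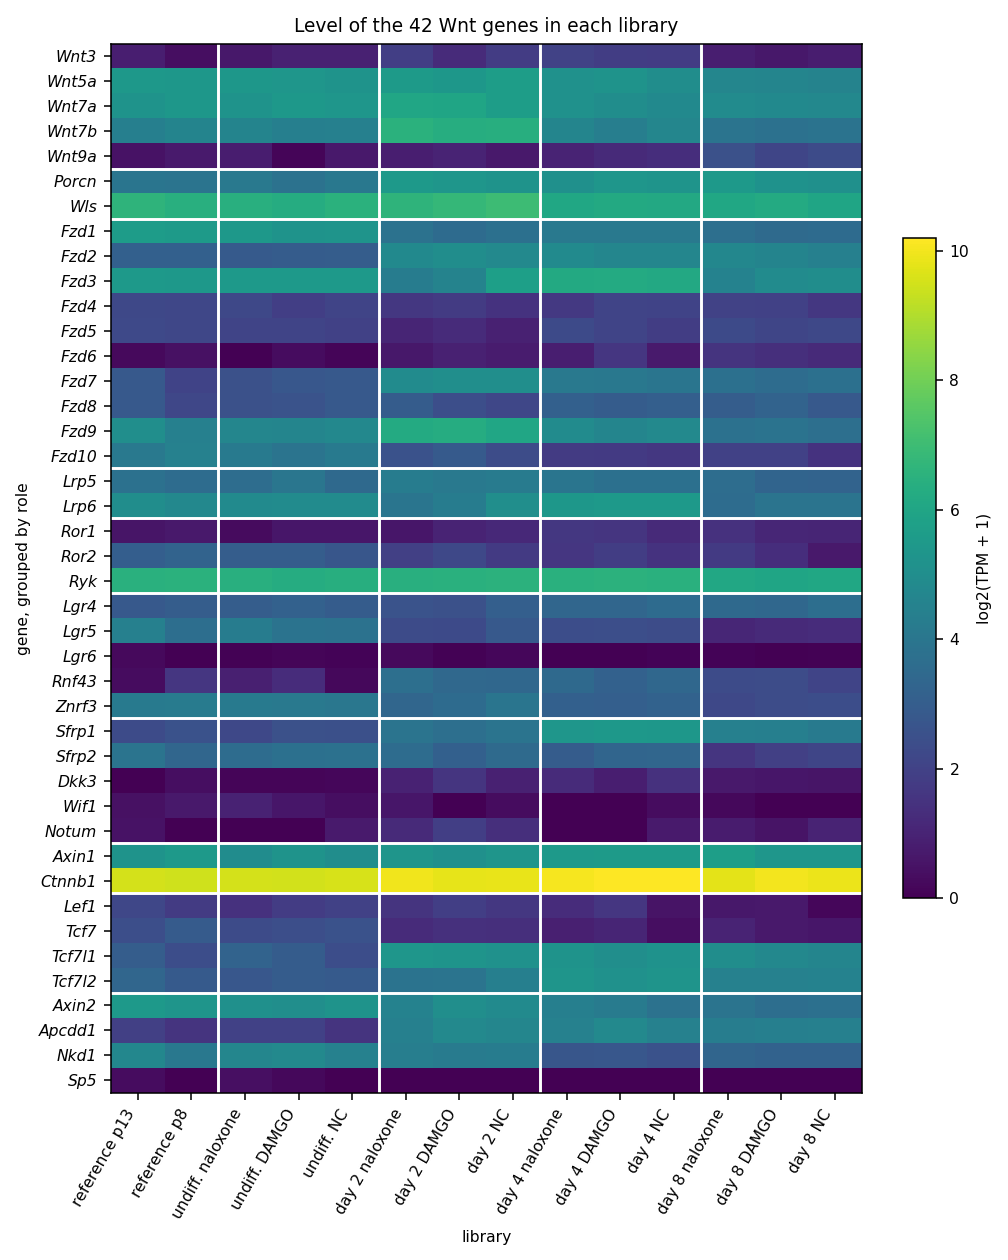
Level of each of the 42 genes (vertical axis, grouped by role) in each of the 14 libraries (horizontal axis), as log2(TPM + 1). The brightest line is Ctnnb1, the darkest lines are Lgr6 and Sp5, and the block of day 2 libraries is brighter than its neighbours for Wnt7b, Fzd7 and Fzd9.

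**Figure D2:**
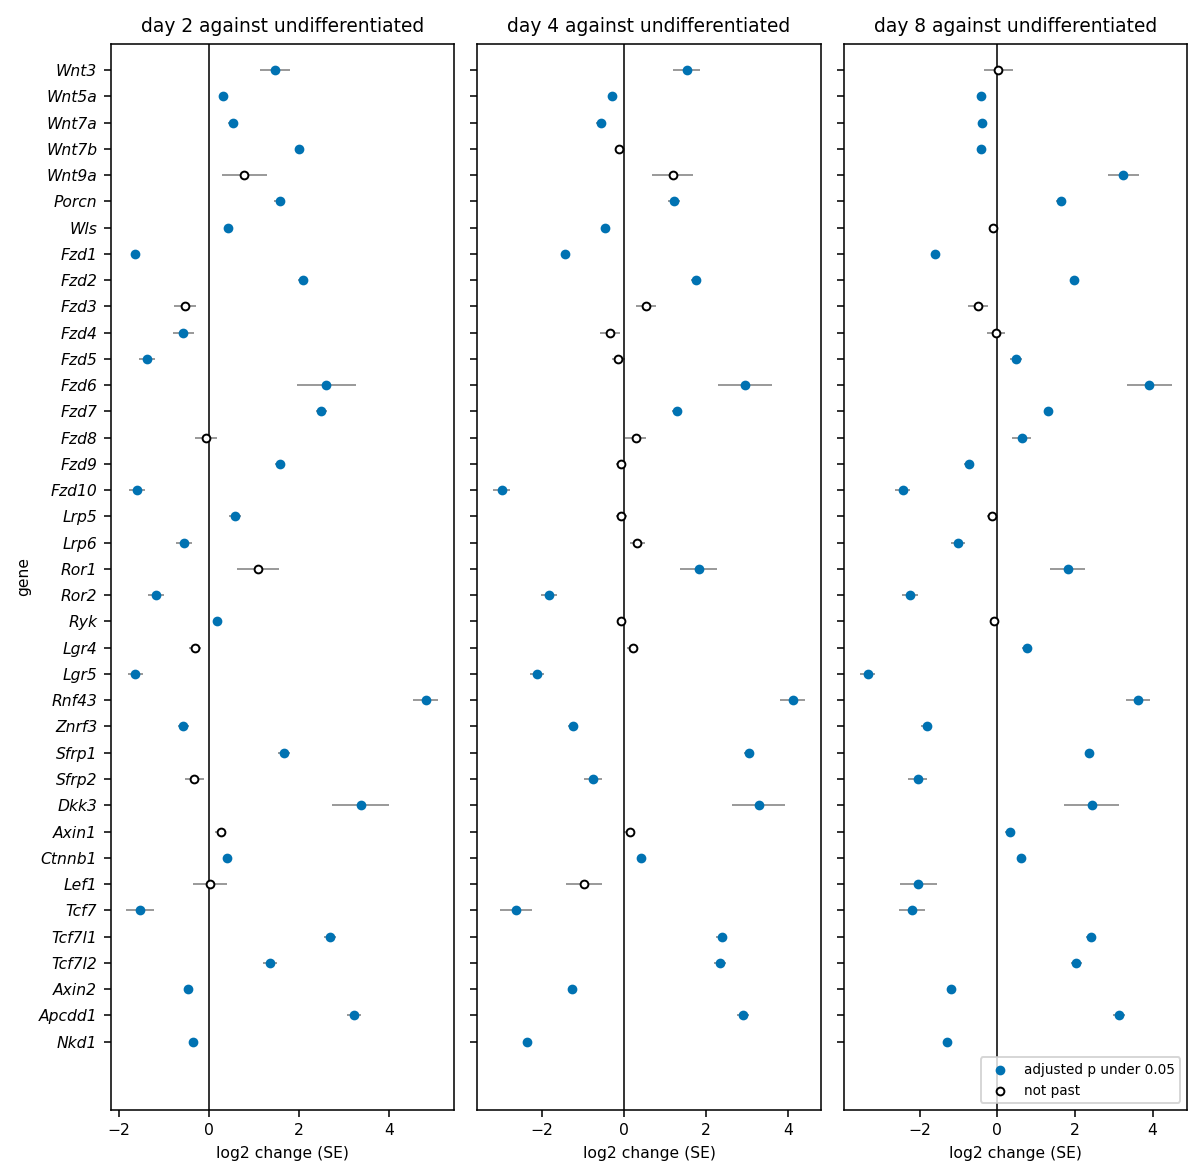
Fitted log2 change of the 38 tested genes (vertical axis) at day 2, day 4 and day 8 against undifferentiated cells, with bars of 1 SE. Filled points passed the adjusted p threshold of 0.05. The largest rise is that of Rnf43 at day 2 (4.82) and the largest fall that of Lgr5 at day 8 (-3.34).

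Of the 5 ligands, 4 rose at day 2 and 0 fell, where 33.7% of all genes were called higher, and 2 of the 4 calls, Wnt7a and Wnt5a, were lost under some alternatives. At day 8, Wnt9a was higher and 3 were lower, where 41.6% and 38.5% of all genes were. Wnt7b, a ligand of the cortical and vascular Wnt response (ENSMUSG00000022382, chr15:85535437-85582473, minus strand, mm10), was at 23.5, 20.03 and 21.0 TPM in the naloxone, DAMGO and NC libraries of undifferentiated cells. It was at 89.4, 79.8 and 83.8 TPM in those of day 2, at 23.7, 19.7 and 24.5 TPM in those of day 4, and at 14.3, 13.1 and 13.7 TPM in those of day 8. The 3 day 2 libraries stood far above all others without overlap, and the day 4 libraries overlapped the undifferentiated ones. The log2 change against undifferentiated cells was 2.0 ± 0.09 at day 2 (edgeR, adjusted p = 2.46e-08), -0.11 ± 0.09 at day 4 (adjusted p = 0.317; -0.33, adjusted p = 0.00909, with a GC and length trend removed across libraries) and -0.43 ± 0.09 at day 8 (adjusted p = 0.00124), and Wnt7b fell by 2.11 ± 0.09 at day 4 against day 2.

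Wnt7a, the close relative of Wnt7b, had a smaller day 2 peak. Its level was 37.1, 42.4 and 40.0 TPM in the naloxone, DAMGO and NC libraries of undifferentiated cells and 64.8, 62.2 and 49.7 TPM at day 2. The values were 34.5, 30.7 and 27.7 TPM at day 4 and 29.1, 27.8 and 26.1 TPM at day 8. All day 2 values were above all undifferentiated values, with the NC library the lowest of that stage, and all day 4 and day 8 values were below them. The change was 0.54 ± 0.11 at day 2 (edgeR, adjusted p = 0.00129), -0.56 ± 0.11 at day 4 and -0.38 ± 0.11 at day 8. The day 2 rise was 0.34 with an adjusted p of 0.0592 when the NC library alone stood for day 2 and 0.24 (adjusted p = 0.0524) with a GC and length trend removed across libraries, and the day 8 fall had adjusted p = 0.0542 without the day 8 naloxone library and 0.053 without the undifferentiated NC library.

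Wnt5a, the ligand of the Ror receptors, was the other abundant ligand. The naloxone, DAMGO and NC libraries held 41.6, 39.4 and 36.7 TPM in undifferentiated cells and 46.5, 40.9 and 50.4 TPM at day 2. The values were 34.3, 36.6 and 31.2 TPM at day 4 and 24.3, 23.8 and 22.5 TPM at day 8. The day 2 and undifferentiated values overlapped on this scale, whereas those of day 4 and day 8 were all lower. The fitted changes were 0.32 ± 0.08 at day 2 (edgeR, adjusted p = 0.00649), -0.28 ± 0.08 at day 4 (adjusted p = 0.015) and -0.43 ± 0.08 at day 8 (adjusted p = 0.000792). With a trend on GC content and length removed across libraries the day 8 value was -0.08 (adjusted p = 0.336), and on log2(TPM + 1) the day 2 value was 0.22 (adjusted p = 0.0964). The day 4 call was lost without the day 4 NC library (-0.24, adjusted p = 0.0711), the undifferentiated DAMGO library (-0.25, adjusted p = 0.0655) or the undifferentiated naloxone library (-0.26, adjusted p = 0.0543).

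Wnt9a, a ligand that takes part in canonical signalling, was low until it rose at day 8. It was at 4.73, 3.36 and 3.98 TPM in the naloxone, DAMGO and NC libraries of day 8 and at 0.74, 0.11 and 0.62 TPM in those of undifferentiated cells, and the groups did not overlap. The change at day 8 was 3.24 ± 0.40 (edgeR, adjusted p = 2.67e-05), while 0.78 ± 0.50 at day 2 and 1.19 ± 0.50 at day 4 did not pass (the day 4 value was 1.21, adjusted p = 0.0422, without the day 2 NC library and 1.46, adjusted p = 0.0466, without the day 4 naloxone library). Wnt3, a canonical ligand, showed the opposite timing: 0.57, 0.93 and 0.93 TPM in the naloxone, DAMGO and NC libraries of undifferentiated cells and 2.69, 1.36 and 2.54 TPM at day 2. The values were 3.02, 2.61 and 2.49 TPM at day 4 and 0.82, 0.59 and 0.74 TPM at day 8. It was higher at day 2 by 1.46 ± 0.33 and at day 4 by 1.53 ± 0.33, and its day 8 level overlapped the undifferentiated one. These values rest on few counts: 5, 8 and 7 in the undifferentiated naloxone, DAMGO and NC libraries and at most 34 in any library.

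As a share of the summed TPM of these 5 ligands, Wnt7b took 21.1% ± 1.62 in undifferentiated cells (SD, n = 3 libraries of different treatments), 43.9% ± 0.87 at day 2, 24.8% ± 3.17 at day 4 and 19.7% ± 0.658 at day 8. The sum itself was 102, 192, 91.6 and 69.6 TPM over the 4 stages. Wnt9a held 5.77% ± 0.797 of it at day 8 and 0.482% ± 0.328 in undifferentiated cells.

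Both genes of ligand export and modification rose at day 2, where 33.7% of all genes were called higher. Porcn, the enzyme that attaches the lipid to Wnt proteins, was at 16.2, 13.5 and 15.7 TPM in the naloxone, DAMGO and NC libraries of undifferentiated cells and 44.2, 40.0 and 36.2 TPM at day 2. The values were 33.7, 39.7 and 37.2 TPM at day 4 and 44.5, 35.4 and 33.2 TPM at day 8. Every differentiating library was above every undifferentiated one, with changes of 1.57 ± 0.13, 1.23 ± 0.14 and 1.64 ± 0.13 at day 2, day 4 and day 8 (edgeR, adjusted p from 1.18e-06 to 2.3e-05). Wls, the carrier that brings Wnt proteins to the cell surface, was at 85.5, 78.2 and 89.2 TPM in the naloxone, DAMGO and NC libraries of undifferentiated cells and 99.0, 109 and 126 TPM at day 2. The values were 66.5, 72.3 and 69.8 TPM at day 4 and 65.7, 73.0 and 63.3 TPM at day 8. It was higher at day 2 by 0.43 ± 0.08 and fell by 0.47 ± 0.09 at day 4, and the day 8 change of -0.11 ± 0.08 did not pass (adjusted p = 0.232). That value was 0.88 (adjusted p = 9.88e-06) with a GC and length trend removed across libraries and -0.32 (adjusted p = 0.0116) on log2(TPM + 1), the scale on which the day 8 libraries lay below the undifferentiated ones without overlap, so its direction depended on the processing.

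The order of the Frizzled receptors by level differed between stages. In undifferentiated cells Fzd3 and Fzd1 led, at day 2 Fzd9 did, at day 4 Fzd3 again, and at day 8 Fzd3 and Fzd2. Of the 10 Frizzled genes 4 rose and 4 fell at day 2, 3 rose and 2 fell at day 4, and 5 rose and 3 fell at day 8. Of all genes 69.7% were called at day 2, 62.3% at day 4 and 80.1% at day 8, so these counts were near the background. Their summed level was 147 ± 3.47 TPM in undifferentiated cells, 189 ± 10.8 TPM at day 2, 174 ± 5.92 TPM at day 4 and 104 ± 2.46 TPM at day 8 (SD, n = 3).

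Fzd9 and Fzd7 shared the day 2 peak, and the 300 bases around their RefSeq start sites (250 before and 50 after, GRCm38.p6) are shown with those of Axin2, a target that fell at the same stage, so that the windows of genes moving in opposite directions can be compared. Fzd7 is at chr1:59481897-59482196 on the plus strand, Fzd9 at chr5:135250998-135251297 on the minus strand and Axin2 at chr11:108920099-108920398 on the plus strand. Capitals mark a match to 1 of the 4 Tcf/Lef core words, which are CTTTG followed by AA, AT, TA or TT, searched on both strands, and each sequence is written 5′ to 3′ on the strand of its gene.
Fzd7: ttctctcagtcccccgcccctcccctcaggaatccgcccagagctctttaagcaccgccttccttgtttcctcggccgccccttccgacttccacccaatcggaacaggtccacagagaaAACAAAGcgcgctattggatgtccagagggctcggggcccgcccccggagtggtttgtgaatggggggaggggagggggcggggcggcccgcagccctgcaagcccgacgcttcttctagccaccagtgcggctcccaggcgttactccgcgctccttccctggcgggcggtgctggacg
Fzd9: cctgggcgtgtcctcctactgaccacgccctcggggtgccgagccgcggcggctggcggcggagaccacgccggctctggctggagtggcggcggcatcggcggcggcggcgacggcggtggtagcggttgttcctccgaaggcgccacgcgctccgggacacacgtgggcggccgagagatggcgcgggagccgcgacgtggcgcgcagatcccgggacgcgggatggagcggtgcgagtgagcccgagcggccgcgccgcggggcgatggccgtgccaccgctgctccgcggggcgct
Axin2: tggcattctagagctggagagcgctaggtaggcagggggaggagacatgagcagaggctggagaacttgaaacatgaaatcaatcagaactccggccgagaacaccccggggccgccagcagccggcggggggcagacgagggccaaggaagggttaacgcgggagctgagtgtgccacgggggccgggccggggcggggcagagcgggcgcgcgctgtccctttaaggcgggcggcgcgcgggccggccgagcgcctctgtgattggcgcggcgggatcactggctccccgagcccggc
The Fzd7 window holds 1 match, on the minus strand, beginning 130 bases before the start site, and the other 2 windows hold none. Windows were found for 26 members, 33 windows in all, of which 5 hold a word (15.2%), beside 16.9% of all 32851 RefSeq mouse promoter windows of this length. The share among members was thus near that of all windows. A match describes these letters only.

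Fzd9 (ENSMUSG00000049551), a receptor known from hippocampal development, was at 24.3, 23.9 and 25.8 TPM in the naloxone, DAMGO and NC libraries of undifferentiated cells and 73.9, 77.3 and 63.7 TPM at day 2. The values were 28.8, 23.9 and 26.9 TPM at day 4 and 12.9, 13.6 and 12.1 TPM at day 8. The day 2 libraries stood apart above and the day 8 libraries apart below, and day 4 overlapped the undifferentiated level. Fzd9 rose by 1.57 ± 0.11 at day 2 (edgeR, adjusted p = 9.36e-07), was at -0.08 ± 0.12 at day 4 (adjusted p = 0.589) and fell by 0.73 ± 0.12 at day 8 (adjusted p = 0.000285). Undifferentiated cells had 16.8% ± 0.59 of the Frizzled sum in Fzd9, day 2 cells 38.2% ± 5.34 and day 8 cells 12.3% ± 0.475.

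Fzd7 (ENSMUSG00000041075), a receptor of canonical signalling in many stem cells, was at 4.77, 5.85 and 6.13 TPM in the naloxone, DAMGO and NC libraries of undifferentiated cells and 28.8, 32.1 and 31.8 TPM at day 2. The values were 16.6, 16.01 and 14.4 TPM at day 4 and 12.4, 11.2 and 12.6 TPM at day 8. It did not return to its first level: every differentiating library was above every undifferentiated one. The rise was 2.50 ± 0.12 at day 2, 1.30 ± 0.12 at day 4 and 1.32 ± 0.12 at day 8 (edgeR, adjusted p = 3.98e-08, 5.69e-06 and 2.72e-06).

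Fzd2, a receptor for both canonical ligands and Wnt5a, rose at day 2 and stayed high. The naloxone, DAMGO and NC libraries held 6.44, 6.83 and 7.10 TPM in undifferentiated cells and 27.6, 30.9 and 26.8 TPM at day 2. The values were 28.6, 24.8 and 24.8 TPM at day 4 and 25.4, 23.4 and 20.9 TPM at day 8. All 9 differentiating libraries were above all undifferentiated ones, with changes of 2.09 ± 0.11, 1.75 ± 0.11 and 1.98 ± 0.11 (edgeR, adjusted p from 6.59e-08 to 3.34e-07), and the share in the Frizzled sum was 22.3% ± 2.13 at day 8 and 4.62% ± 0.279 in undifferentiated cells. Fzd6, a receptor of planar polarity in skin and neural tube, had a total of 4 counts in the 3 undifferentiated libraries and rose at every stage. Its level was 1.88, 1.61 and 1.33 TPM in the naloxone, DAMGO and NC libraries of day 8 and 0, 0.26 and 0.10 TPM in those of undifferentiated cells, a fitted change of 3.92 ± 0.57 (edgeR, adjusted p = 9.96e-05).

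Fzd1 and Fzd10 went the other way. Fzd1, a broadly expressed canonical receptor, was at 41.98, 36.9 and 37.2 TPM in the naloxone, DAMGO and NC libraries of undifferentiated cells and 13.1, 10.9 and 12.5 TPM at day 2. The values were 16.3, 16.5 and 16.4 TPM at day 4 and 12.1, 10.4 and 10.7 TPM at day 8. Fzd10, a receptor found in the dorsal neural tube, was at 16.9, 14.3 and 16.6 TPM in the naloxone, DAMGO and NC libraries of undifferentiated cells and 5.0, 6.30 and 4.16 TPM at day 2. The values were 2.46, 2.30 and 2.11 TPM at day 4 and 2.90, 2.97 and 1.79 TPM at day 8. For both genes every differentiating library was below every undifferentiated one. The changes at day 2, day 4 and day 8 were -1.64 ± 0.08, -1.43 ± 0.08 and -1.60 ± 0.08 for Fzd1, and -1.61 ± 0.18, -2.98 ± 0.21 and -2.43 ± 0.19 for Fzd10 (edgeR, adjusted p at most 1.93e-05).

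Fzd3, a receptor for axon guidance, is the 1 tested member not called against undifferentiated cells at any stage, a status shared by 7.11% of all genes, and it passed at all 3 stages when the day 2 NC library was left out. It was at 43.5, 44.0 and 42.8 TPM in the naloxone, DAMGO and NC libraries of undifferentiated cells and 18.3, 22.7 and 53.2 TPM at day 2. The values were 72.6, 74.6 and 69.7 TPM at day 4 and 21.6, 29.0 and 30.9 TPM at day 8. At day 2 the drug libraries lay below and the NC library above the undifferentiated level, while day 4 was above it and day 8 below it without overlap. The day 2 change was -0.54 ± 0.25 (edgeR, adjusted p = 0.0792), -0.95 without the day 2 NC library (adjusted p = 5.06e-06) and 0.21 with the NC library alone standing for day 2 (adjusted p = 0.3). At day 4 the change was 0.54 ± 0.25 (adjusted p = 0.0813) and 0.58 without the day 2 NC library (adjusted p = 0.000103), and at day 8 it was -0.50 ± 0.25 (adjusted p = 0.0931), -0.49 without that library (adjusted p = 0.000411) and 0.98 with a GC and length trend removed across libraries (adjusted p = 2.57e-07). Its transcript is the poorest in GC of the list, at 40.3%.

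The remaining Frizzled genes stayed between 0.93 and 8.37 TPM in all 12 libraries. Fzd5, an eye and gut receptor, fell by 1.38 ± 0.17 at day 2 (edgeR, adjusted p = 4.95e-05) and was higher at day 8 by 0.48 ± 0.15 (adjusted p = 0.0121), a rise lost on log2(TPM + 1), at 0.14 (adjusted p = 0.404), and without the day 8 NC library, at 0.37 (adjusted p = 0.0602). Fzd4, the receptor for Norrin in vessels, had a day 2 change of -0.57 ± 0.23 with an adjusted p of 0.0495, which did not hold in 10 of the 12 fits that left out 1 library (-0.40, adjusted p = 0.206, without the day 2 NC library). Fzd8 was 0.63 ± 0.24 higher at day 8 (adjusted p = 0.0313), a call lost in 4 of the 12 fits that left out 1 library (0.46, adjusted p = 0.14, without the day 8 DAMGO library, and 0.46, adjusted p = 0.15, without the undifferentiated naloxone library).

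**Figure D3:**
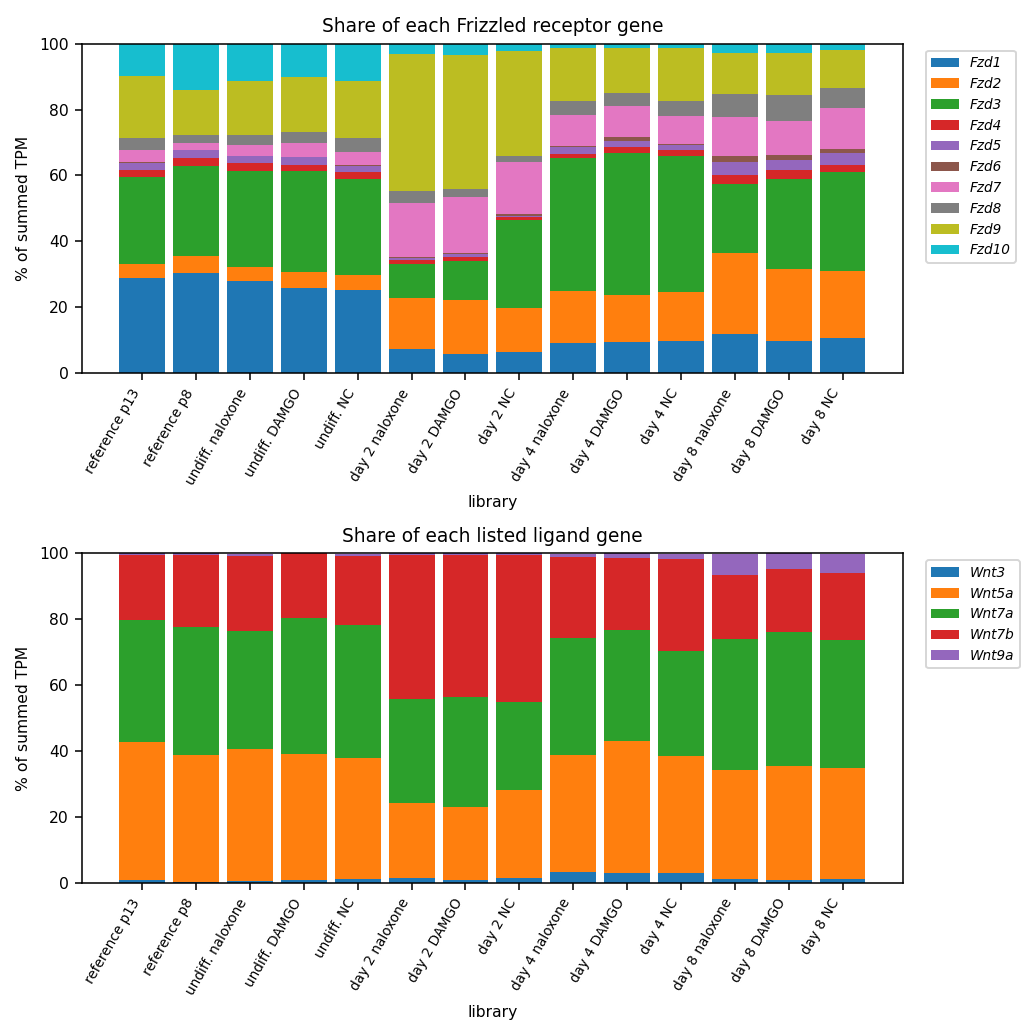
Share of each gene in the summed TPM of the 10 Frizzled receptors (upper panel) and of the 5 listed ligands (lower panel), in percent, in each of the 14 libraries. Fzd9 widens at day 2 to between 32.0 and 41.6%, Fzd1 narrows from day 2 on to at most 11.7%, and Wnt7b fills 43.1 to 44.8% of the ligand sum at day 2.

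The co-receptors Lrp5 and Lrp6, which join Frizzled in canonical signalling, were called in opposite directions at day 2, and Lrp6 also at day 8. Lrp5 was at 18.4, 16.2 and 17.9 TPM in the naloxone, DAMGO and NC libraries of day 2 and at 11.4, 15.0 and 10.3 TPM in those of undifferentiated cells, without overlap, and rose by 0.58 ± 0.13 (edgeR, adjusted p = 0.00236). Its changes of -0.06 ± 0.13 at day 4 and -0.13 ± 0.13 at day 8 did not pass, but with a GC and length trend removed across libraries they were -0.28 (adjusted p = 0.0458) and -0.46 (adjusted p = 0.00236). Lrp6 was at 28.6, 28.9 and 28.8 TPM in the naloxone, DAMGO and NC libraries of undifferentiated cells and 14.4, 18.6 and 31.6 TPM at day 2. The values were 41.5, 43.8 and 43.3 TPM at day 4 and 11.3, 14.1 and 13.9 TPM at day 8. It fell by 1.01 ± 0.19 at day 8 (adjusted p = 0.000504), lower in all 3 libraries. The day 2 call, -0.56 ± 0.18 (adjusted p = 0.0199), rested on the drug libraries: the value was 0.02 (adjusted p = 0.906) without both of them, -0.02 (adjusted p = 0.839) with a GC and length trend removed across libraries, -0.44 (adjusted p = 0.0944) without the DAMGO library and -0.35 (adjusted p = 0.0964) without the naloxone library. It was also lost without the undifferentiated naloxone library, at -0.45 (adjusted p = 0.0857), or the undifferentiated DAMGO library, at -0.54 (adjusted p = 0.0597). The day 4 value of 0.33 ± 0.18 (adjusted p = 0.14) passed without the day 2 NC library, at 0.36 (adjusted p = 0.000436).

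Of the receptors outside the canonical branch, Ror2 fell and Ror1 rose. Ror2, the Wnt5a receptor, was at 6.93, 7.13 and 5.69 TPM in the naloxone, DAMGO and NC libraries of undifferentiated cells and 2.85, 3.62 and 2.33 TPM at day 2. The values were 2.02, 2.65 and 1.82 TPM at day 4 and 2.34, 1.5 and 0.64 TPM at day 8. Every differentiating library was lower, with changes of -1.19 ± 0.18, -1.82 ± 0.20 and -2.25 ± 0.20 (edgeR, adjusted p = 0.000181, 1.73e-05 and 2.27e-06). Its relative Ror1 was at 0.24, 0.54 and 0.55 TPM in the naloxone, DAMGO and NC libraries of undifferentiated cells, 2.14, 1.99 and 1.29 TPM at day 4 and 1.74, 1.12 and 1.09 TPM at day 8, and rose by 1.83 ± 0.45 at day 4 and 1.81 ± 0.44 at day 8. Ryk, an atypical kinase-like receptor, was abundant, between 63.2 and 92.7 TPM in all 12 libraries. Its mean level was 81.4 TPM in undifferentiated cells, 88.5 TPM at day 2, 88.9 TPM at day 4 and 65.5 TPM at day 8. Among the 12 libraries, day 8 lay below and day 2 and day 4 above the undifferentiated ones, at day 2 narrowly (84.42 against 84.03 TPM). The passage 8 and passage 13 references, at 90.1 and 88.2 TPM, lay within the day 2 and day 4 ranges. Its day 4 change of -0.06 ± 0.07 on counts did not pass (edgeR, adjusted p = 0.452). On counts its day 8 change was -0.09 ± 0.07 and did not pass (adjusted p = 0.265), while it was -0.31 (adjusted p = 0.00257) on log2(TPM + 1) and -0.21 (adjusted p = 0.0142) with a GC and length trend removed across libraries. Its day 2 rise was 0.17 ± 0.07 (adjusted p = 0.0427) and had an adjusted p over 0.05 in 9 of the 12 fits that left out 1 library (0.15, adjusted p = 0.134, without the day 2 DAMGO library).

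Among the genes that set Frizzled levels at the membrane, Lgr5 and Znrf3 fell at all 3 stages and Rnf43 rose. Lgr4 and Lgr5 are receptors for R-spondins, which protect Frizzled, and Rnf43 and Znrf3 are ubiquitin ligases that remove it. Lgr5, also a target and a stem cell marker of the gut, was at 18.6, 13.7 and 13.4 TPM in the naloxone, DAMGO and NC libraries of undifferentiated cells and 4.05, 3.86 and 6.15 TPM at day 2. The values were 4.29, 4.53 and 4.11 TPM at day 4 and 1.13, 1.32 and 1.42 TPM at day 8. It was lower in every differentiating library, with log2 changes of -1.64 ± 0.17 at day 2, -2.12 ± 0.18 at day 4 and -3.34 ± 0.20 at day 8 (edgeR, adjusted p = 1.18e-05, 2.79e-06 and 1.04e-07).

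Lgr4 was at 6.99, 8.03 and 6.73 TPM in the naloxone, DAMGO and NC libraries of undifferentiated cells and 5.16, 4.84 and 7.39 TPM at day 2. The values were 9.31, 9.30 and 10.7 TPM at day 4 and 10.1, 9.64 and 11.7 TPM at day 8. Day 2 overlapped the undifferentiated level, and the rise at day 8 was 0.76 ± 0.13 (edgeR, adjusted p = 0.000275). Lgr4 thus held 32.4% ± 4.83 of the summed TPM of Lgr4, Lgr5 and Lgr6 in undifferentiated cells. Its share was 54.7% ± 0.629 at day 2, 69.2% ± 2.48 at day 4 and 88.8% ± 0.769 at day 8. The sum itself was 22.6 ± 2.79 TPM in undifferentiated cells and 10.6 ± 2.67, 14.1 ± 0.694 and 11.8 ± 1.19 TPM on day 2, day 4 and day 8. Lgr6 had 20 counts over all 14 libraries and was not tested.

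Rnf43 had the largest change of the list. It had 4, 5 and 1 counts in the naloxone, DAMGO and NC libraries of undifferentiated cells, 145, 106 and 111 at day 2, 55, 42 and 76 at day 4 and 65, 48 and 39 at day 8. The differentiating libraries did not overlap the undifferentiated ones, and the changes were 4.82 ± 0.28 at day 2, 4.12 ± 0.30 at day 4 and 3.63 ± 0.31 at day 8 (edgeR, adjusted p = 2.02e-07, 9.66e-07 and 1.95e-06). The mean transcript length that RSEM assigned to Rnf43 differed between libraries, from 1341 to 3800 bases, so its changes in TPM and in counts are not the same in size: mean TPM values were 0.827 in undifferentiated cells and 10.6, 9.2 and 3.81 at day 2, day 4 and day 8.

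Znrf3 was at 16.9, 16.3 and 15.5 TPM in the naloxone, DAMGO and NC libraries of undifferentiated cells and 9.23, 11.0 and 14.5 TPM at day 2. The values were 7.72, 7.53 and 8.10 TPM at day 4 and 3.58, 4.10 and 4.35 TPM at day 8. Each stage lay below the one before it, with changes against undifferentiated cells of -0.57 ± 0.12, -1.24 ± 0.13 and -1.82 ± 0.13 (edgeR, adjusted p = 0.00208, 1.44e-05 and 5.56e-07). The day 2 value was -0.33 (adjusted p = 0.0886) when the NC library alone stood for that stage. Rnf43 made up 4.7% ± 3.55 of the summed TPM of the pair in undifferentiated cells and 48.1% ± 8.69, 54.1% ± 2.55 and 48.7% ± 5.08 at day 2, day 4 and day 8. The sum of the pair was 17.0 ± 1.23 TPM in undifferentiated cells, and 22.2 ± 1.68, 17.0 ± 1.24 and 7.82 ± 0.388 TPM on those days.

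Of the 5 secreted inhibitors 3 were tested, with 2 higher and 1 lower at day 8. Of all genes 41.6% were called higher and 38.5% lower at that stage. Sfrp1, a decoy that binds Wnt proteins outside the cell, was at 3.62, 4.80 and 4.61 TPM in the naloxone, DAMGO and NC libraries of undifferentiated cells and 14.2, 12.2 and 14.1 TPM at day 2. The values were 40.4, 42.5 and 41.4 TPM at day 4 and 20.7, 20.1 and 17.6 TPM at day 8. The 4 stages did not overlap, and the changes were 1.67 ± 0.13, 3.06 ± 0.12 and 2.37 ± 0.12 at day 2, day 4 and day 8 (edgeR, adjusted p = 1.23e-06, 1.02e-08 and 3.77e-08). Its relative Sfrp2 was at 11.0, 12.7 and 12.9 TPM in the naloxone, DAMGO and NC libraries of undifferentiated cells and 11.0, 7.75 and 10.4 TPM at day 2. The values were 6.75, 9.12 and 9.28 TPM at day 4 and 1.94, 2.81 and 3.33 TPM at day 8. Sfrp2 fell by 2.05 ± 0.24 at day 8 (adjusted p = 2.24e-05) without overlap. Its day 4 value of -0.74 ± 0.22 (adjusted p = 0.0139) was -0.61 (adjusted p = 0.0674) without the day 4 naloxone library and -0.67 (adjusted p = 0.0607) without the undifferentiated DAMGO library.

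Dkk3, a divergent member of the Dickkopf family, had 3 counts over the 3 undifferentiated libraries, and 42 at day 2, 31 at day 4 and 21 at day 8. Its CPM was 11.3 times the undifferentiated value at day 2 (95% counting interval 3.62 to 57.1), 10.8 times at day 4 (3.36 to 55) and 5.88 times at day 8 (1.76 to 30.8), with adjusted p = 0.000753, 0.00131 and 0.00896 (edgeR). On log2(TPM + 1) the day 8 change was 0.48 and did not pass (adjusted p = 0.0629). Such intervals cover counting error only. Notum, an enzyme that removes the lipid from Wnt proteins, was too low to test, at 6, 9 and 9 counts in the naloxone, DAMGO and NC libraries of day 2 and 0, 0 and 3 in those of undifferentiated cells, a ratio of 6.47 (1.96 to 33.6). Wif1, a Wnt-binding inhibitor, had 24 counts over all 14 libraries, 1 of them at day 8 and 10 in undifferentiated cells of the drug experiment, a ratio of 0.084 (0.00194 to 0.59). Both were left out of the fits by the filter on low counts and carry no test.

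Inside the cell, Ctnnb1, which encodes beta-catenin, was the most abundant gene of the list. It was at 743, 717 and 760 TPM in the naloxone, DAMGO and NC libraries of undifferentiated cells and 992, 907 and 923 TPM at day 2. The values were 1060, 1166 and 1134 TPM at day 4 and 879, 1019 and 938 TPM at day 8. All differentiating libraries were above all undifferentiated ones, by 0.39 ± 0.08, 0.43 ± 0.08 and 0.60 ± 0.08 (edgeR, adjusted p = 0.00181, 0.00106 and 6.96e-05). Axin1, the scaffold of the complex that destroys beta-catenin, was at 51.6, 39.8 and 39.8 TPM in the naloxone, DAMGO and NC libraries of day 8 and at 29.9, 37.1 and 30.9 TPM in those of undifferentiated cells. Its rise of 0.32 ± 0.13 at day 8 (adjusted p = 0.0381) was -0.31 (adjusted p = 0.0179) with a GC and length trend removed across libraries and 0.28 (adjusted p = 0.113) without the day 8 naloxone library. Leaving out the day 8 NC library gave 0.22 (adjusted p = 0.169), the undifferentiated NC library 0.29 (adjusted p = 0.115), the undifferentiated naloxone library 0.23 (adjusted p = 0.174) and the day 4 naloxone library 0.32 (adjusted p = 0.0507).

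The nuclear partners of beta-catenin differed in direction. Tcf7l1 and Tcf7l2 rose and Tcf7 fell at all 3 stages, and Lef1 fell at day 8. Tcf7l1, which mostly acts as a repressor, was at 8.53, 6.75 and 4.32 TPM in the naloxone, DAMGO and NC libraries of undifferentiated cells and 40.1, 37.2 and 35.0 TPM at day 2. The values were 36.5, 31.4 and 35.8 TPM at day 4 and 30.7, 26.3 and 23.9 TPM at day 8. Tcf7l2, the factor that acts in the oligodendrocyte lineage and thalamus, was at 5.87, 6.84 and 6.48 TPM in the naloxone, DAMGO and NC libraries of undifferentiated cells and 13.9, 14.2 and 20 TPM at day 2. The values were 39.3, 34.6 and 37.3 TPM at day 4 and 21.5, 21.3 and 21.7 TPM at day 8. For both, no differentiating library overlapped the undifferentiated ones. The rise was largest at day 2 for Tcf7l1 (2.69 ± 0.13, edgeR, adjusted p = 3.97e-08) and at day 4 for Tcf7l2 (2.35 ± 0.15, adjusted p = 3.49e-07), and at day 8 it was 2.41 ± 0.13 for Tcf7l1 and 2.04 ± 0.15 for Tcf7l2.

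Tcf7, the factor best known from T cells and itself a target, was at 4.03, 4.39 and 4.87 TPM in the naloxone, DAMGO and NC libraries of undifferentiated cells and 1.36, 1.67 and 1.56 TPM at day 2. The values were 0.87, 1.10 and 0.31 TPM at day 4 and 1.03, 0.62 and 0.55 TPM at day 8. It was lower in every differentiating library, with log2 changes of -1.53 ± 0.31, -2.63 ± 0.38 and -2.19 ± 0.34 (edgeR, adjusted p = 0.0014, 0.000146 and 0.000152). Lef1, a mostly activating factor, was at 1.72, 2.48 and 2.91 TPM in the naloxone, DAMGO and NC libraries of undifferentiated cells and 1.91, 2.71 and 2.14 TPM at day 2. The values were 1.42, 2.04 and 0.45 TPM at day 4 and 0.57, 0.62 and 0.14 TPM at day 8. Its day 8 change was -2.03 ± 0.48 (adjusted p = 0.00276) without overlap, while 0.02 ± 0.38 at day 2 and -0.97 ± 0.44 at day 4 (adjusted p = 0.079) did not pass. The summed TPM of the 4 factors was 49.7 at day 8 and 19.7 in undifferentiated cells. Of that sum Tcf7 held 1.46% ± 0.398 at day 8 and 22.6% ± 3.25 in undifferentiated cells, and Lef1 held 0.877% ± 0.508 at day 8 and 12.1% ± 3.56 in undifferentiated cells. Tcf7l1 held 54.2% ± 2.75 at day 8 and 32.9% ± 9.54 in undifferentiated cells, and Tcf7l2 held 43.5% ± 3.48 at day 8 and 32.5% ± 2.99 in undifferentiated cells.

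The feedback targets did not move as a group. Axin2, the most widely used reporter of canonical signalling (ENSMUSG00000000142, chr11:108920349-108950783, plus strand, mm10), was at 33.2, 32.0 and 37.0 TPM in the naloxone, DAMGO and NC libraries of undifferentiated cells and 21.9, 31.8 and 28.5 TPM at day 2. The values were 19.9, 17.6 and 13.4 TPM at day 4 and 13.97, 11.7 and 12.5 TPM at day 8. Every differentiating library was below every undifferentiated one, narrowly so in TPM for day 2 DAMGO. The mean transcript length that RSEM assigned to Axin2 ran from 2386 to 3834 bases over the 12 libraries. In CPM the naloxone, DAMGO and NC libraries of day 2 were at 37.5, 38.5 and 38.0. Those of undifferentiated cells were at 53.4, 54.2 and 48.2 CPM. Axin2 fell, with changes of -0.46 ± 0.10 at day 2 (edgeR, adjusted p = 0.0018), -1.26 ± 0.10 at day 4 (adjusted p = 2.3e-06) and -1.20 ± 0.10 at day 8 (adjusted p = 1.75e-06). The day 2 fall was -0.32 on log2(TPM + 1) (adjusted p = 0.139) and -0.38 with the NC library alone standing for day 2 (adjusted p = 0.0521).

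Nkd1, which binds and restrains Dishevelled, was at 24.3, 26.7 and 21.5 TPM in the naloxone, DAMGO and NC libraries of undifferentiated cells and 19.4, 18 and 18.4 TPM at day 2. The values were 5.59, 5.74 and 4.89 TPM at day 4 and 9.06, 8.27 and 8.34 TPM at day 8. The 4 stages did not overlap among the 12 libraries, though the passage 8 reference, at 15.8 TPM, lay below those of day 2. Day 4 was the low point, at -2.35 ± 0.10 against undifferentiated cells (edgeR, adjusted p = 1.76e-08), with day 8 higher than day 4 by 1.06 ± 0.11 (adjusted p = 1.51e-05). Its day 2 fall of 0.35 ± 0.09 (adjusted p = 0.00487) was -0.31 (adjusted p = 0.0907) with the NC library alone standing for day 2, and -0.25 (adjusted p = 0.0739) with the passage 8 reference counted among the NC libraries.

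Apcdd1, a membrane inhibitor of Wnt receptors that is also a target in brain vessels, rose. The naloxone, DAMGO and NC libraries held 2.89, 2.94 and 1.92 TPM in undifferentiated cells and 20.9, 26.9 and 24.4 TPM at day 2. The values were 21.4, 27.0 and 21.2 TPM at day 4 and 18.7, 20.3 and 20.9 TPM at day 8. All 9 differentiating libraries were far above the 3 undifferentiated ones, by 3.22 ± 0.15, 2.91 ± 0.15 and 3.14 ± 0.15 (edgeR, adjusted p at most 7.22e-08). Sp5, a target known from early embryos, had 5 counts over all 14 libraries and was not tested. Counting Znrf3, Rnf43, Lgr5, Tcf7 and Notum with Axin2, Nkd1 and Apcdd1 as feedback or target genes, the fallers at day 8 were Axin2, Nkd1, Znrf3, Lgr5 and Tcf7 and the risers Rnf43 and Apcdd1.

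**Figure D4:**
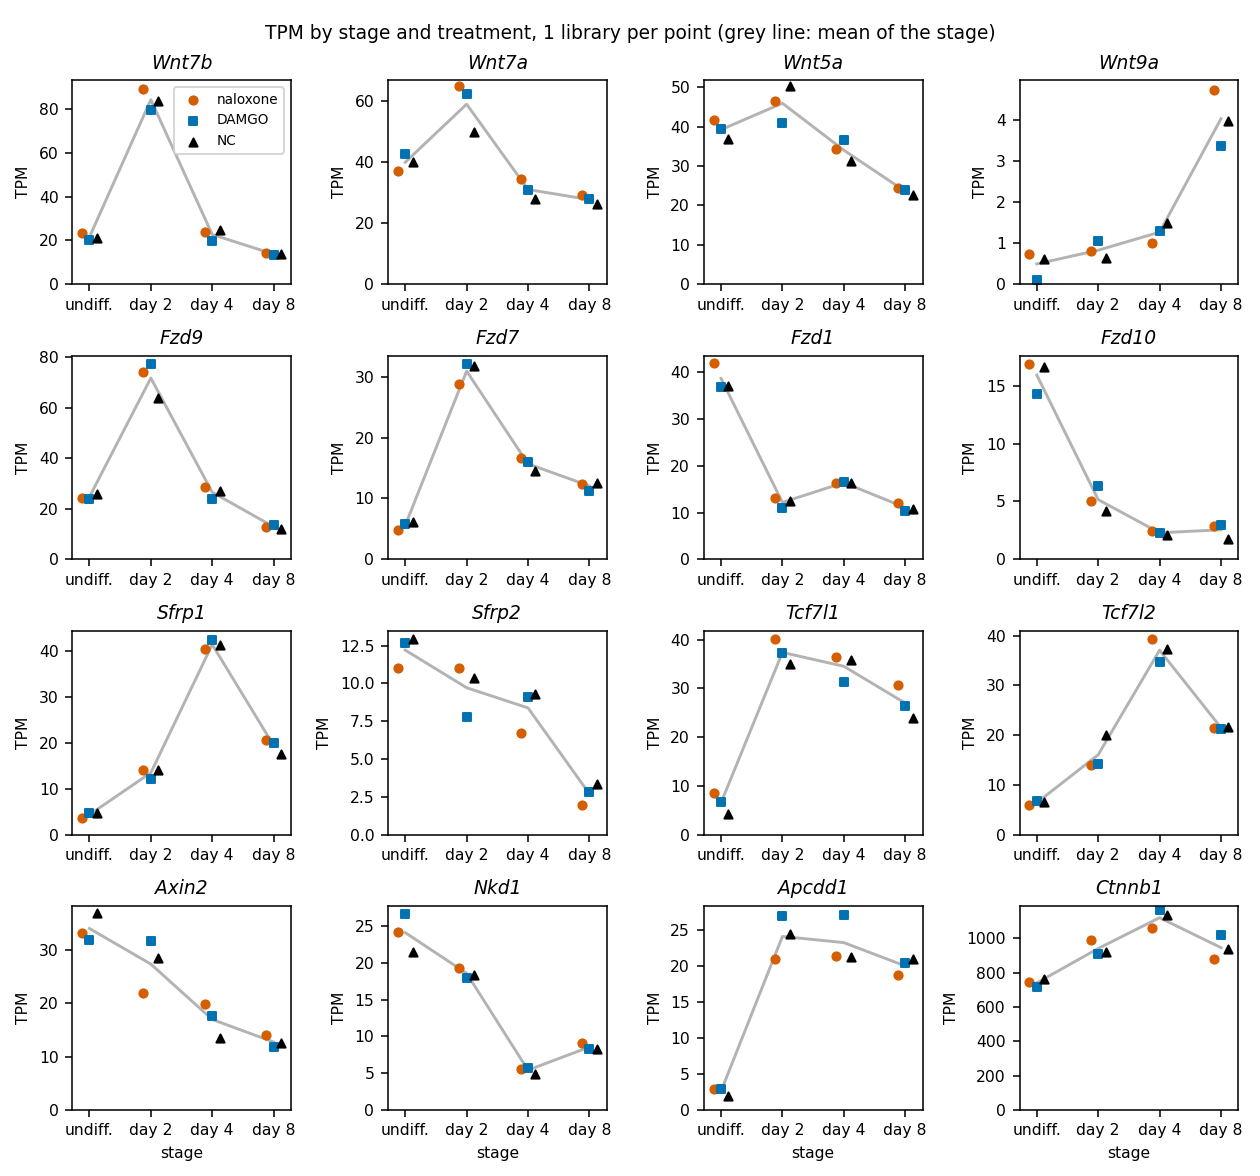
TPM of 16 of the genes (vertical axes, each from 0) in undifferentiated cells and at day 2, day 4 and day 8 (horizontal axes), with 1 point per library coloured by treatment and a grey line through the stage means. Wnt7b and Fzd9 stand out at day 2 only, Sfrp1 and Tcf7l2 peak at day 4, Axin2 and Fzd10 stay below their undifferentiated values, and points of the 3 treatments lie close together.

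Between consecutive stages, 6 members rose and 18 fell at day 4 against day 2, where 51.9% of all genes were called (27.1% higher and 24.8% lower), and the median change was -0.33 beside 0.01 over all genes. The count of falls was 11 on log2(TPM + 1), a scale that moved the median of all genes by 0.20, and 11 when the NC library alone stood for day 2. The largest falls were those of Wnt7b (-2.11 ± 0.09), Nkd1 (-2.01 ± 0.10) and Fzd9 (-1.65 ± 0.11). At day 8 against day 4, 7 members rose and 10 fell, where 68.6% of all genes were called (37.1% higher and 31.5% lower). On log2(TPM + 1), which moved the median of all genes by -0.29, the counts were 2 and 19, so the split of this comparison depends on the scale. Wnt9a (2.06 ± 0.34) and Nkd1 (1.06 ± 0.11) were higher at day 8 on both scales, and Wnt3 (-1.5 ± 0.32), Lrp6 (-1.34 ± 0.19), Sfrp2 (-1.31 ± 0.26) and Lgr5 (-1.22 ± 0.23) were among those lower.

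The rest of the pathway was described with a list of 98 further genes, of which 97 were found and 69 tested. At day 2, 30 rose and 22 fell, at day 4 27 rose and 21 fell, and at day 8 28 rose and 23 fell, with median changes of 0.08, 0.12 and 0.08. The share called was above the 69.7% and 62.3% of all genes at day 2 and day 4, and below the 80.1% at day 8. These are descriptions with no test. Celsr1, a cadherin of planar polarity, rose by 5.05 ± 0.10, 5.63 ± 0.10 and 5.13 ± 0.10 at day 2, day 4 and day 8, and Daam2, a formin that acts downstream of Dishevelled and holds back oligodendrocyte maturation in mice, by 3.68 ± 0.13, 4.91 ± 0.13 and 6.43 ± 0.13. Draxin, a secreted guidance protein that antagonises Wnt signalling, rose by 3.41 ± 0.09 at day 2 and 2.30 ± 0.08 at day 4. The decoy Sfrp5 had 460 counts over the 3 libraries of day 8 and 2 over those of undifferentiated cells, a ratio of CPM of 193 with a 95% counting interval of 53.2 to 1600. Wnt5b, the relative of Wnt5a, rose by 2.87 ± 0.23 at day 8.

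On the falling side, Ccnd1, the cyclin D1 gene and a classical target that also marks cell division, fell, with changes of -4.44 ± 0.08, -5.92 ± 0.09 and -6.01 ± 0.09 at day 2, day 4 and day 8. The co-repressor Tle2 changed by -3.91 ± 0.12, -4.87 ± 0.14 and -4.85 ± 0.14 at those days, and Birc5, a gene of mitosis listed as a target, by -3.25 ± 0.14, -5.41 ± 0.18 and -6.13 ± 0.19. Dact1, which binds Dishevelled, changed by -2.13 ± 0.14 at day 2 and -3.21 ± 0.15 at day 8, and Cd44, an adhesion receptor and target, by -2.59 ± 0.13 at day 4. Each of these passed with an adjusted p of at most 0.000636 in edgeR. The 5 dividing-cell markers fell at every stage beside Ccnd1 and Birc5, and their part in those falls was not tested.

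The drugs did not move any member past the threshold. For naloxone against NC over the 4 stages, edgeR called 0 of 38 members and 0% of all genes, and 3 members had an unadjusted p under 0.05. The count was also 0 with DESeq2, with limma-voom and with limma applied to log2 TPM. The smallest p was that of Tcf7l1, 0.33 ± 0.10 higher with naloxone (an unadjusted p of 0.0067, adjusted p = 0.469), at 8.53, 40.1, 36.5 and 30.7 TPM with naloxone in undifferentiated, day 2, day 4 and day 8 cells, against 4.32, 35.0, 35.8 and 23.9 TPM with NC, so that naloxone was higher in 4 of 4 stages. Lgr4 was at -0.26 ± 0.11 and Lrp6 at -0.37 ± 0.16 (adjusted p = 0.469 for both), and the day 2 NC library is the highest of its stage for both. Over all members the fitted differences ran from -0.48 to 0.37.

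For DAMGO against NC, edgeR also called 0 of 38 members and 0% of all genes, with 2 members at an unadjusted p under 0.05 and 0 called by limma on log2 TPM, limma-voom or DESeq2. Ror2 had the smallest p, 0.59 ± 0.18 higher (an unadjusted p of 0.00774, adjusted p = 0.951), at 7.13, 3.62, 2.65 and 1.5 TPM with DAMGO in undifferentiated, day 2, day 4 and day 8 cells, against 5.69, 2.33, 1.82 and 0.64 TPM with NC, again higher in 4 of 4 stages. With naloxone it was at 6.93, 2.85, 2.02 and 2.34 TPM, also above NC at each stage. Ror2 here and Tcf7l1 for naloxone were picked by p from these same values, so the agreement over stages is no further support. Lgr4 followed at -0.27 ± 0.11 and Fzd6 at 0.77 ± 0.40. The 2 drug comparisons share their NC libraries, so their values are not independent. The range over members was -0.30 to 0.77.

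Naloxone against DAMGO gave 0 of 38 members and 0% of all genes in edgeR, 3 members at an unadjusted p under 0.05 and 0 in limma on log2 TPM, limma-voom and DESeq2. The 3 were Wnt7b (0.19 ± 0.08), Tcf7l1 (0.23 ± 0.10) and Fzd1 (0.17 ± 0.07), all with an adjusted p of 1.0. Whether the drug difference itself differed between differentiating and undifferentiated cells was tested with an interaction term: 0 members and 0% of all genes passed for either drug in edgeR, and at an unadjusted p under 0.05 there were 0 members for naloxone and 3 for DAMGO. These were Lrp5 (-0.52 ± 0.19), Tcf7l2 (-0.70 ± 0.27) and Fzd10 (0.78 ± 0.30). The median SE of a drug difference over members was close to 0.11. Data with this design were simulated, with 12817 genes in the fit. Of 67 simulated 1.5-fold differences between naloxone and NC, 53.7% were recovered, and of 67 that were 2-fold, 94%. Differences of 1.5-fold in single genes were therefore often not detectable. The same fit also held 66 simulated 4-fold differences, whereas edgeR called 0% of all genes in the real comparison of naloxone with NC. The shares recovered may therefore be higher than in the real data. They do not show the recovery of genes with few counts, such as Lef1, Tcf7, Dkk3, Fzd6 and Wnt3. Recovery was also not tested with a shift like that of the day 2 NC library.

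Within stages the differences between drug and NC libraries have no test. Over all genes they were largest at day 2, where they followed GC content, while over members the SD of the log2 ratio for DAMGO was 0.455 at day 4 and 0.437 at day 2. The log2 ratio of naloxone to NC at day 2 correlated with transcript GC across the 38 members (r = 0.677) and across 13075 genes (r = 0.576), and for DAMGO the values were 0.499 and 0.533. A relation with GC content was also present at day 8 for naloxone, with r = 0.473 across 13075 genes and 0.235 across members. These are descriptions across genes that share the same libraries. At day 2, 3 members differed at least 2-fold with naloxone and 2 with DAMGO, where 12.1% and 9.32% of all genes did. Fzd3, Lrp6 and Fzd8 for naloxone and Fzd3 and Dkk3 for DAMGO were those members. Fzd8 was at 6.88 TPM with naloxone and 4.45 TPM with DAMGO, against 3.49 TPM with NC.

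Lef1 and Tcf7 were lower in the NC library than in both drug libraries at day 4 and day 8. For Lef1 the counts were 11 and 9 with naloxone at day 4 and day 8 and 13 and 7 with DAMGO, against 4 and 1 with NC. For Tcf7 they were 5 and 12 with naloxone and 5 and 5 with DAMGO, against 2 and 4 with NC. At these counts the differences were not detectable, and neither gene passed in any drug comparison.

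**Figure D5:**
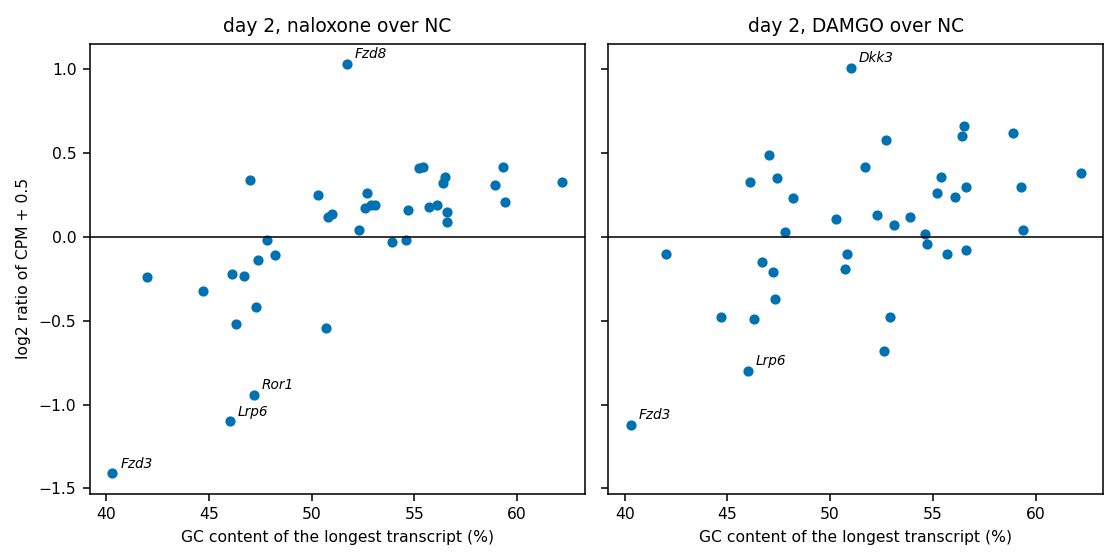
Log2 ratio of CPM (after adding 0.5 to each) between the naloxone and NC libraries (left) and the DAMGO and NC libraries (right) of day 2, against the GC content of the longest transcript, with 1 point for each of the 38 tested genes. Ratios are lowest for the GC-poor Fzd3 and Lrp6 and mostly above 0 over 55% GC (r = 0.677 and 0.499 across genes).

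The reference libraries set the undifferentiated values in context. Passage 13 against passage 8 gave 0 members in edgeR, where 3 of 13855 genes (0.0217%) were called, with 5 members at an unadjusted p under 0.05. The smallest p values belonged to Nkd1, at 25.3 TPM at passage 13 and 15.8 TPM at passage 8 (0.64 ± 0.15, adjusted p = 0.423), and Fzd7, at 6.24 and 3.14 TPM at those passages (0.95 ± 0.23, adjusted p = 0.495). The passage 8 reference against undifferentiated NC cells, also at passage 8, gave 0 members where 0.325% of genes were called, with 6 members at an unadjusted p under 0.05, led by Fzd7 at -0.78 ± 0.21. Each reference library is single, so its spread was assumed to be that of the other libraries. For Wnt7b, Fzd9, Fzd1, Fzd10, Axin2, Tcf7l2, Sfrp1 and Apcdd1 both reference libraries lay on the undifferentiated side of the gap to day 2.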

How the data were processed

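Per the labels, total RNA went into TruSeq libraries. The submitters' processing notes name Bowtie, RSEM and mm10, with no version or setting given. The deposited files hold the authors' expected counts and the authors' TPM for 29713 genes. The expected counts, not whole for 10.4 to 13.1% of genes, were rounded. GENCODE of the same build named 29202 identifiers. RSEM divides reads shared by related genes, and the mean transcript length it gives a gene can differ between libraries. Among tested members the ratio of the longest to the shortest was largest for Rnf43 (2.83), Lgr5 (1.8), Ror2 (1.62) and Axin2 (1.61), which affects their TPM.

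Counts were tested with edgeR 4.0.16 (quasi-likelihood, TMM scaling, filter on low counts, Benjamini-Hochberg over all genes, threshold 0.05; R 4.3.3). The model that adds stage and treatment, over 12 libraries, had 6 residual degrees of freedom and kept 13144 genes; the interaction model had 4; the passage comparisons used 14 libraries and 13855 genes. P-values measure the spread between these libraries, which may be technical.

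The members and lists were chosen with earlier results of these data known. Values by library are given for up to 4 members of each role with the largest stage change past the threshold and a mean of at least 1 TPM in some stage, and for Axin2, Lef1, Ctnnb1, Wnt5a, Wnt7a, Wnt7b and Lrp6; Fzd1, Fzd3, Fzd4, Fzd5, Fzd8 and Fzd9 were added after their values were seen. For the drugs the 3 smallest p are named, and of the other pathway genes at most 4 each way per stage with at least 5 CPM.

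Alternatives were DESeq2 1.42.0 and its size factors, limma 3.58.1 on voom or log2 TPM (pseudocount 1 or 0.1), no filter, no treatment term, a GC and length trend (mgcv 1.9.3), the passage 8 reference as NC, the differentiating libraries alone, at least 2-fold, each library left out, and no day 2 libraries. A fit without both day 2 drug libraries was chosen after seeing the data. The code was tested on simulated data. Promoter windows came from RefSeq (GRCm38.p6).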

Additional observations from a re-analysis of the deposited data

How the results depend on the processing

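Of the counts of calls recomputed under the alternatives, 948 stayed within 1.5 times and 32 did not. A minimum of 2-fold gave, for members, 6 falls in place of 11 at day 2, 3 rises and 6 falls in place of 6 and 18 at day 4 against day 2, and 2 rises and 5 falls in place of 7 and 10 at day 8 against day 4. For the other pathway genes it gave 18 rises in place of 30 at day 2, 16 and 12 (27 and 21) at day 4, 14 and 9 (28 and 23) at day 8, 6 and 8 (19 and 21) at day 4 against day 2 and 6 and 7 (23 and 23) at day 8 against day 4. Over all genes it kept 4431 of 9156 calls at day 2, 3728 of 8192 at day 4 and 6241 of 10532 at day 8. Between stages it kept 2250 of 6824 at day 4 against day 2 and 3955 of 9022 at day 8 against day 4. Counts over all genes under the other alternatives are not given here. Without the day 2 naloxone and DAMGO libraries 6 members fell at day 2 in place of 11. At day 4 against day 2 the 18 falls became 11 on log2 TPM with either pseudocount and 11 without the day 2 drug libraries. The other pathway genes then had 11 rises with a GC and length trend removed across libraries and 8 without the day 2 drug libraries in place of 19, and 11 or 12 falls on log2 TPM in place of 21. At day 8 against day 4, log2 TPM gave 2 rises and 19 falls of members (7 and 10 before) and 8 rises and 35 falls of other genes (23 and 23), and the GC and length trend gave 16 falls of members. For the passage 8 reference against undifferentiated NC cells, fits that left out 1 library gave 0 to 1 other genes higher.

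Single values changed sign as follows. With a GC and length trend removed across libraries, Fzd3 was at 0.50 at day 2, 0.98 at day 8 and 0.27 at day 8 against day 4, Axin1 at -0.31 and Wls at 0.88 at day 8, and Porcn at -0.27 at day 8 against day 4. Without the day 2 drug libraries, Fzd3 was at 0.21 and Lrp6 at 0.02 at day 2. On log2 TPM with pseudocounts of 0.1 and 1, Ryk was at 0.01 in both at day 4 against day 2 and at 0.13 in both at day 4, Wls at -0.05 in both at day 8 against day 4, and at day 4 Fzd9 was at 0.10 in both, Lrp5 at 0.12 and 0.11 and Wnt7b at 0.07 in both. Lef1 at day 2, which was not called, was at -0.05 and -0.04 on those scales, at -0.04 with the passage 8 reference as NC, and between -0.19 and 0.39 over the fits that left out 1 library. Over those fits, uncalled values of Lrp5 ran from -0.18 to 0.14 at day 4 and from -0.25 to 0.07 at day 8, and those of Fzd9 at day 4 from -0.14 to 0.02. The causes were not tested. Over all single genes and alternatives, 4358 values kept their direction and side of the threshold, 185 lost a call and 53 gained one. No member was called for a drug under any alternative. No paired analysis was possible because the labels carry no shared replicate numbers, but the drug comparisons already set libraries against each other within stages, with stage as a term of the model. Depth limits the tests of Wnt3, Lef1, Tcf7, Dkk3 and Fzd6, which had at most 46 counts in any library. It also limits those of Wnt9a and Ror1. In the undifferentiated naloxone, DAMGO and NC libraries Wnt9a had 7, 1 and 5 counts and Ror1 had 4, 9 and 8.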

Other observations

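Among genes of the pathway outside the list, named here after their values were seen, Ndp, which encodes Norrin, a ligand of Fzd4 that is not a Wnt protein, was at 64.5, 63.7 and 54.1 TPM in the naloxone, DAMGO and NC libraries of day 8 and at 19.7, 18.5 and 16.5 TPM in those of undifferentiated cells, with a log2 change of 1.95 ± 0.10 (SE; edgeR, adjusted p = 4.88e-08).

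Apc and Apc2, scaffolds of the complex that destroys beta-catenin, differed in direction at day 8. Apc was at 158, 173 and 149 TPM in the naloxone, DAMGO and NC libraries of undifferentiated cells, 22.8, 38.8 and 87.8 TPM at day 2, 125, 121 and 94.8 TPM at day 4 and 9.15, 19.0 and 20.3 TPM at day 8. Its log2 changes against undifferentiated cells were -2.03 ± 0.35 at day 2, -0.72 ± 0.34 at day 4 (edgeR, adjusted p = 0.0847; -0.71, adjusted p = 0.00155, without the day 2 NC library) and -3.16 ± 0.37 at day 8 (adjusted p = 1.87e-05), with the day 2 NC library the highest of its stage. Apc2 was at 72.2, 57.1 and 60.3 TPM in the naloxone, DAMGO and NC libraries of day 8 and at 11.3, 11.0 and 15.9 TPM in those of undifferentiated cells, with a log2 change of 2.65 ± 0.10 (edgeR, adjusted p = 2.69e-09). The decoy Sfrp4 fell by 3.86 ± 0.63 on the log2 scale at day 2, at 0, 0.21 and 0.72 TPM in the naloxone, DAMGO and NC libraries of that stage against 4.80, 5.09 and 3.93 TPM in those of undifferentiated cells.

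The ligands Wnt3a and Wnt8a and the inhibitors Dkk1 and Dkk4 were listed at 0 TPM in all 14 libraries. The R-spondin gene Rspo1 was at 4.12, 1.03 and 0.96 TPM in the naloxone, DAMGO and NC libraries of day 8 and at most 0.28 TPM in every other library.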
